A study of Mus musculus with 12 samples.

Results

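Ppp1r1b, a transcript abundant in the projection neurons of the striatum, varied widely among 12 libraries of mouse frontal cortex, and the 6 libraries selected on that level, with at least 100 CPM of Ppp1r1b, are described here against the other 6. CPM is the count of a gene divided by the total count of its library, scaled to 1e6. All 12 mice were 9 months old and carried the APP/PS1 transgenes, a model of amyloid deposition. 6 of them also lacked Hras, a small GTPase of the Ras family (APP/PS1/Hras-/-), and each genotype was made up of 3 males and 3 females, with 1 library per mouse. No group was without the transgenes. Neither the promoter that drives the transgenes nor the strain is stated in the labels. The Ppp1r1b-rich set held 4 APP/PS1 and 2 APP/PS1/Hras-/- mice, and the Ppp1r1b-poor set held 2 and 4 (Fisher's exact test, two-sided p = 0.567). Each set had 3 males.

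Ppp1r1b encodes DARPP-32, which dopamine and cAMP signalling turn into an inhibitor of protein phosphatase 1. The gene (ENSMUSG00000061718) lies on the plus strand of chromosome 11, from 98348404 to 98357796 in GRCm38. Striatal projection neurons fall into a direct pathway, with the dopamine receptor Drd1 and the peptides of Tac1 and Pdyn, and an indirect pathway, with the dopamine receptor Drd2, the adenosine receptor Adora2a and the peptide of Penk. Many genes of these neurons, Ppp1r1b among them, are also transcribed at lower levels in cortical neurons. In bulk tissue, fewer cells of a type and less RNA per cell cannot be told apart.

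From the lowest library up, Ppp1r1b measured 56.6 CPM in APP/PS1 male 1, 65.2 in APP/PS1/Hras-/- female 2, 74.5 in APP/PS1/Hras-/- male 2, 77.0 in APP/PS1 female 3, 80.9 in APP/PS1/Hras-/- female 1 and 97.7 in APP/PS1/Hras-/- male 3. The rich set went on with 104.4 CPM in APP/PS1/Hras-/- female 3, 106.5 in APP/PS1 female 1, 128.5 in APP/PS1 male 2, 149.7 in APP/PS1 female 2, 149.8 in APP/PS1/Hras-/- male 1 and 200.4 in APP/PS1 male 3. The levels formed a continuous series, with 97.7 CPM just outside the threshold and 104.4 CPM just inside it, and the highest library stood 3.54-fold above the lowest. Because these values made the sets, gene levels that differ between the sets or correlate with Ppp1r1b are given below as descriptions, without a p-value. RIN and total counts, which the split did not use, were tested.

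**Figure D1:**
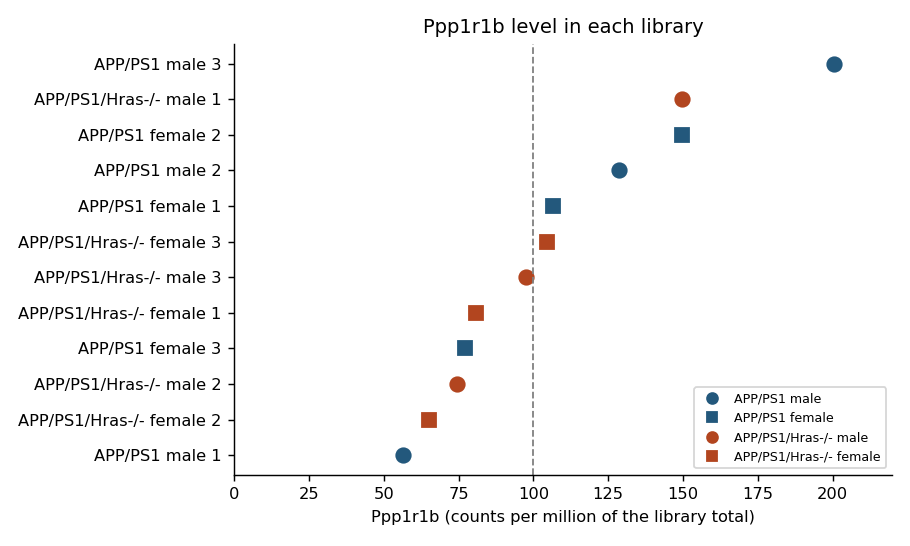
Ppp1r1b level in CPM (horizontal axis) of each of the 12 libraries, 1 point per mouse, coloured by genotype and shaped by sex, with the dashed line at 100 CPM. Both genotypes and both sexes lie on each side of the line, and the levels run from 56.6 to 200.4 CPM with no break at the line.

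The tissue label was checked against cortical genes. Slc17a7, the vesicular glutamate transporter of cortical excitatory neurons, lay between 969.7 and 1434 CPM over the 12 libraries, and Tbr1, a transcription factor of these neurons, lay between 76.2 and 157.1 CPM. Total counts ran from 13984692 to 20174131 and averaged 802800 more in the rich set, a difference within the spread between libraries (exact permutation test, two-sided p = 0.5, adjusted over 2 measures p = 1.0). RIN, the RNA integrity number, was 8.42 ± 0.17 (SD, n = 6) in the rich set and 8.43 ± 0.33 (SD, n = 6) in the poor set (exact permutation p = 1.0). Over the 12 libraries RIN correlated with log2 Ppp1r1b at r = 0.196 (permutation p = 0.55, adjusted p = 0.87) and rho = 0.0389 (permutation p = 0.907, adjusted p = 0.907), and r was -0.13 without APP/PS1 male 3 and APP/PS1 male 1, the libraries farthest from the median. 2 rich libraries (APP/PS1/Hras-/- male 1, APP/PS1 female 2), called Trh-high below, had the highest levels of Trh, a neuropeptide precursor of subcortical neurons, at 15.5 and 18.1 CPM. They also had a low level of Tbr1, given below. APP/PS1 female 1, also rich, had 10.9 CPM of Trh but is not counted as Trh-high. The other 9 libraries had between 0.715 and 2.06 CPM.

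Of 44 genes listed as striatal, 42 passed the filter on low counts. Drd3 had 21 counts in all and was not tested, and Gpr52 was not matched to the table. Among the 41 tested genes other than Ppp1r1b, 39 had a higher mean log2 CPM in the rich set and 2 a lower one (Chrm4, -0.12, and Ikzf1, -0.01). The median difference was 0.66 on the log2 scale, against -0.01 over all 17306 tested genes without Ppp1r1b. For 16 of the 41 genes the lowest rich library lay above the highest poor library, and for none did the highest rich library lie below the lowest poor one. Over all tested genes these shares were 0.566% and 0.266%. Without the 2 Trh-high libraries the count was also 16 and the median difference 0.52. Smaller sets overlap less often, and over all genes the number higher without overlap was then 129, against 98 with all 12 libraries. The summed level of the 41 genes and the untested Drd3 was 2272 to 3206 CPM in the rich set and 1755 to 2075 CPM in the poor set.

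Correlation with Ppp1r1b over the 12 libraries was close for the same list. 23 of the 41 genes had a Pearson r of at least 0.8 between their log2 CPM and that of Ppp1r1b, a mark that 0.549% of all tested genes reached, and none had an r of -0.8 or less, which 0.179% of all tested genes had. The median r was 0.85, against -0.02 over all tested genes. Without the 2 libraries farthest from the median 23 genes reached the mark (1.94% of all genes), 22 of them the same, with Six3 in place of Pde10a. With 6 libraries the mark is reached more often by any gene. Within the 6 APP/PS1 mice 24 striatal genes reached it (3.7% of all genes), and within the 6 APP/PS1/Hras-/- mice 25 did (7.17% of all). Within the 6 rich libraries 12 striatal genes reached it (1.77% of all), and within the 6 poor libraries 8 did (3.1% of all). All genes of a library share its total, so these correlations between CPM values are not independent of one another.

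**Figure D2:**
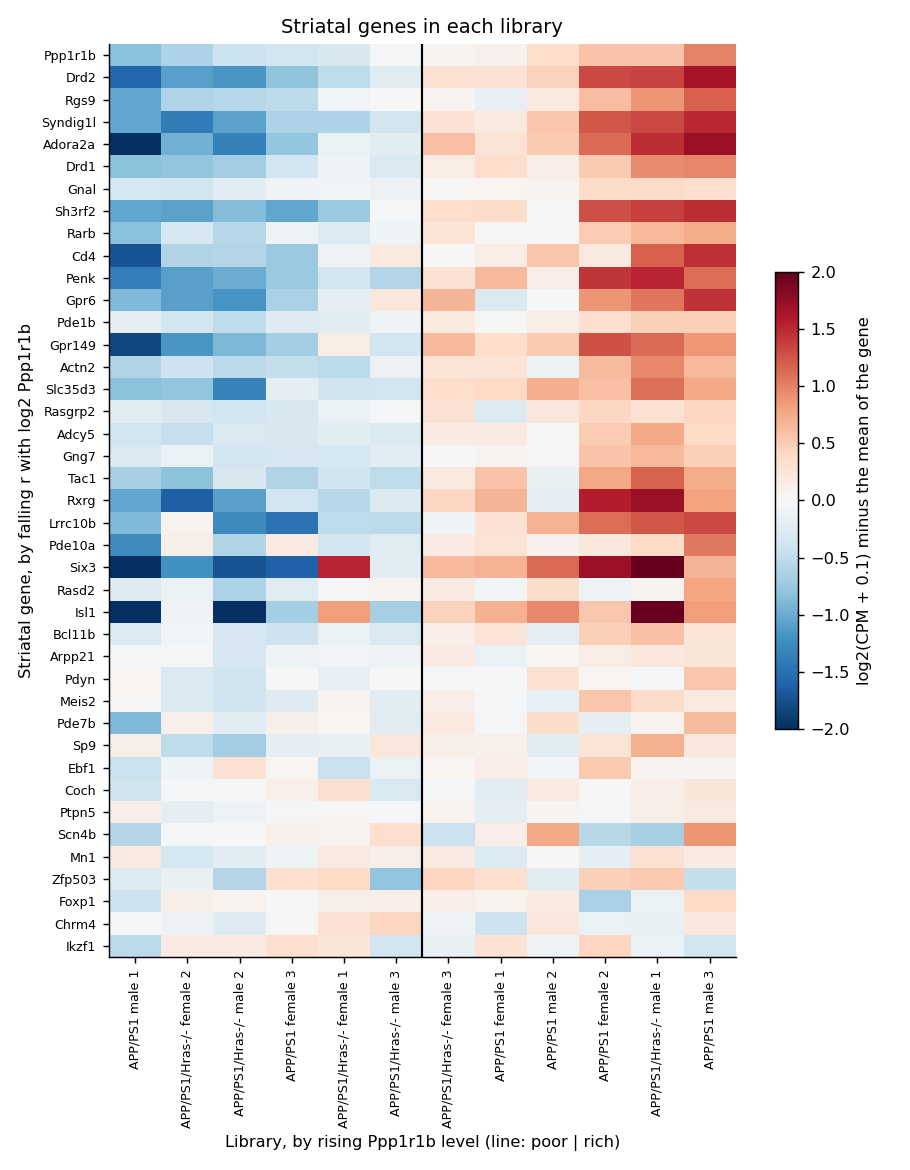
Level of 41 of the 42 tested striatal genes (rows, by falling r with Ppp1r1b) in each library (columns, by rising Ppp1r1b), as log2(CPM + 0.1) minus the gene's mean, with the vertical line between the poor and the rich set. The upper rows run from blue to red with Ppp1r1b, while the lowest rows, among them Scn4b, Foxp1, Chrm4 and Ikzf1, do not.

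Most receptors differed more between the sets than Ppp1r1b itself, whose means were 0.88 (SE 0.18) apart on the log2 scale. Drd2, the dopamine receptor of the indirect pathway, measured 2.42, 3.43, 3.23, 4.21, 5.18 and 6.25 CPM in the poor libraries and 9.14, 9.07, 10.2, 18.7, 18.9 and 23.3 CPM in the rich ones, each in the order of rising Ppp1r1b. The sets did not overlap, the difference of their means was 1.79 (SE 0.32) on the log2 scale, and r with Ppp1r1b was 0.98 (rho 0.99; 0.98 without the 2 farthest libraries). It was the highest r of the striatal genes. Adora2a, the adenosine receptor found with Drd2, ranged from 2.06 to 9.41 CPM with a median of 5.67 in the poor set, and from 12.6 to 34.0 CPM with a median of 19.2 in the rich set. Its difference was 1.90 (SE 0.40), r was 0.95, and the highest library stood 16.5-fold above the lowest.

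Drd1, the dopamine receptor of the direct pathway, ranged from 8.37 to 14.01 CPM (median 10.3) in the poor set and from 16.4 to 29.5 CPM (median 20.3) in the rich set, a difference of 1.03 (SE 0.20) with r = 0.95. The sets did not overlap. Gpr149, an orphan receptor, did not overlap either (1.57, SE 0.31), at a level of 0.236 to 2.76 CPM. Gpr6, an orphan receptor of the indirect pathway, had a difference of 1.25 (SE 0.35) and r = 0.91, with overlap. Chrm4, a muscarinic receptor, stood out from the other receptors: it had 21.2 to 34.5 CPM in the poor set and 19.1 to 29.8 CPM in the rich set, with r = 0.11.

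The 3 neuropeptide genes fell on both sides of the mark. Penk, the enkephalin precursor, had 22.2, 27.2, 29.2, 34.5, 44.7 and 38.6 CPM in the poor libraries and 70.8, 91.3, 63.6, 156.8, 166.7 and 125.3 CPM in the rich ones, in the order of rising Ppp1r1b. The sets did not overlap and differed by 1.72 (SE 0.28), with r = 0.92. The 2 Trh-high libraries had the highest Penk, above APP/PS1 male 3, in which Ppp1r1b was highest. Tac1, the substance P precursor, had 6.44 to 9.10 CPM (median 7.74) against 10.3 to 26.1 CPM (median 18.04), without overlap, a difference of 1.11 (SE 0.21) and r = 0.86. Pdyn, the dynorphin precursor, overlapped, with a difference of 0.27 (SE 0.12) and r = 0.69.

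**Figure D3:**
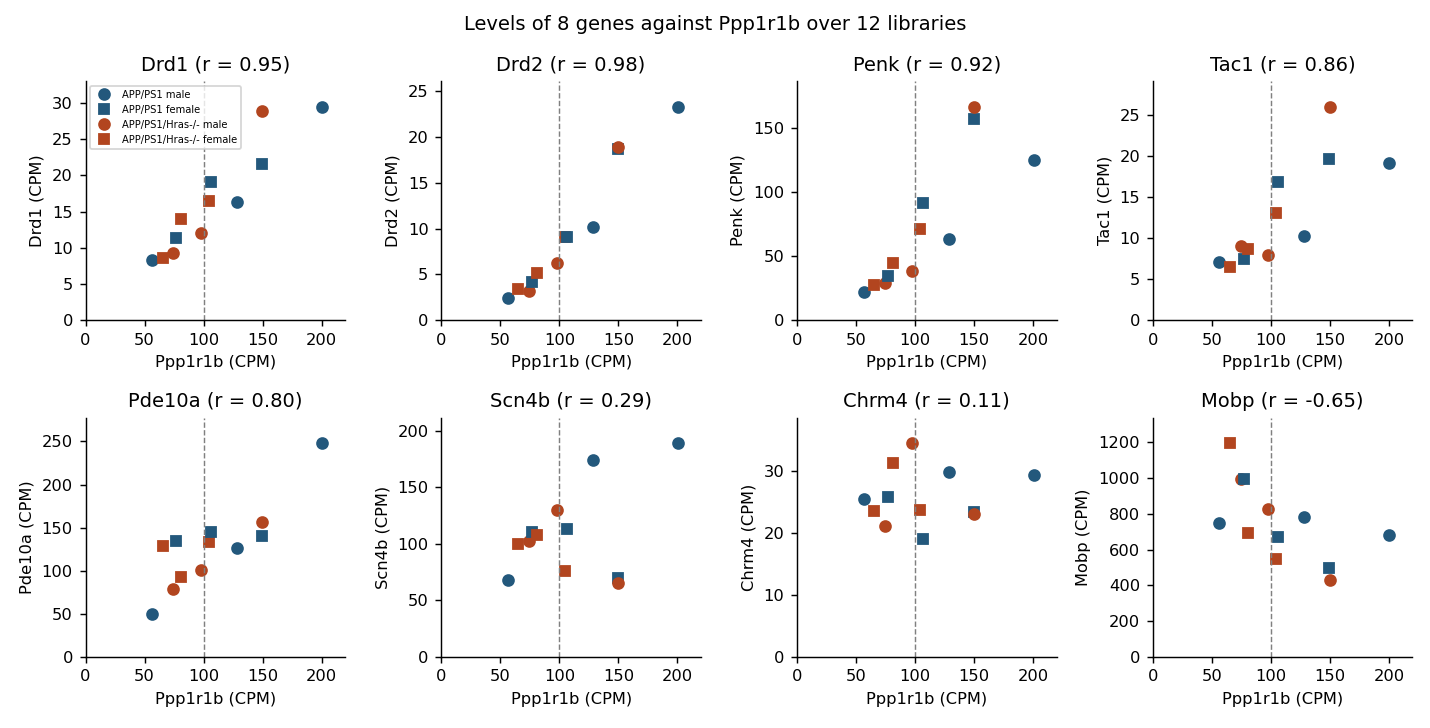
Level of 8 genes in CPM (vertical axes, from 0) against Ppp1r1b in CPM (horizontal axis), 1 point per library, coloured by genotype and shaped by sex, with the dashed line at 100 CPM and r from log2 CPM over the 12 libraries. Drd1, Drd2, Penk and Tac1 rise with Ppp1r1b, whereas Scn4b and Chrm4 have r = 0.29 and 0.11 and Mobp, a myelin gene, has r = -0.65.

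Genes of the cAMP and G protein pathway were higher in the rich set by smaller amounts. All 11 tested members other than Ppp1r1b were higher, with a median of 0.46, and 4 did not overlap (0.566% of all tested genes). These were Adcy5, the adenylyl cyclase on which dopamine receptors act (128.4 to 151.3 against 171.7 to 296.3 CPM, difference 0.66, SE 0.12), Gng7, a G protein gamma subunit (0.57, SE 0.13), the phosphodiesterase Pde1b (0.55, SE 0.10) and Gnal, the stimulatory G protein alpha subunit of striatum (126.1 to 156.1 against 166.0 to 211.7 CPM, 0.40, SE 0.091). Rgs9, a regulator that ends G protein signals, followed Ppp1r1b closely (r = 0.97, difference 0.93, SE 0.27) but overlapped, since APP/PS1 female 1 had 28.6 CPM and the highest poor library 32.2 CPM. Pde10a, the main striatal phosphodiesterase, had 49.8 to 133.9 CPM (median 96.7) against 126.6 to 247.8 CPM (median 142.4). Its r of 0.80 rested on the extreme libraries and was 0.56 without the 2 farthest. Ptpn5, the striatum-enriched phosphatase, differed by 0.07 (SE 0.068).

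Transcription factors were the least uniform of the role lists. 11 of 12 were higher in the rich set, with a median difference of 0.37, and 2 were higher without overlap (0.566% of all tested genes). These were Rxrg, a retinoid X receptor (1.29 to 3.44 against 3.66 to 14.2 CPM, difference 1.66, SE 0.36), and Rarb, a retinoic acid receptor (4.66 to 7.88 against 8.36 to 14.1 CPM, 0.73, SE 0.18). Rarb overlaps Top2b on the opposite strand, which had a mean of 94.9 CPM, and no source used here gives the strand setting of the counting. Six3 (2.23, SE 0.71) and Isl1 (1.76, SE 0.56), both transcription factors of developing striatal neurons, had the largest differences of the list with the largest errors, at levels of at most 4.82 and 2.15 CPM. Isl1 was at 0 in APP/PS1 male 1 and APP/PS1/Hras-/- male 2, and Six3 in APP/PS1 male 1. Bcl11b, also a factor of deep cortical layers, differed by 0.51 (SE 0.12) with r = 0.72. Foxp1 and Mn1 differed by 0.00 (SE 0.17) and 0.06 (SE 0.13).

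The remaining 8 striatal genes were all higher in the rich set, by a median of 1.24, and 3 did not overlap (0.566% of all tested genes). Syndig1l, a relative of a synapse differentiation protein, had 3.22 to 6.63 CPM (median 4.84) against 9.83 to 24.7 CPM (median 16.6), a difference of 1.70 (SE 0.28) with r = 0.97. Sh3rf2 (1.59, SE 0.31) and Slc35d3 (1.30, SE 0.20), a gene of direct pathway neurons, did not overlap either. Actn2, which encodes an actin-binding protein of dendritic spines, missed this by a small margin, with 10.5 CPM in the highest poor and 10.4 CPM in the lowest rich library (0.89, SE 0.17). Scn4b, a sodium channel beta subunit of striatal neurons and of other fast-firing neurons, did not follow Ppp1r1b (0.04, SE 0.30, r = 0.29).

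**Figure D4:**
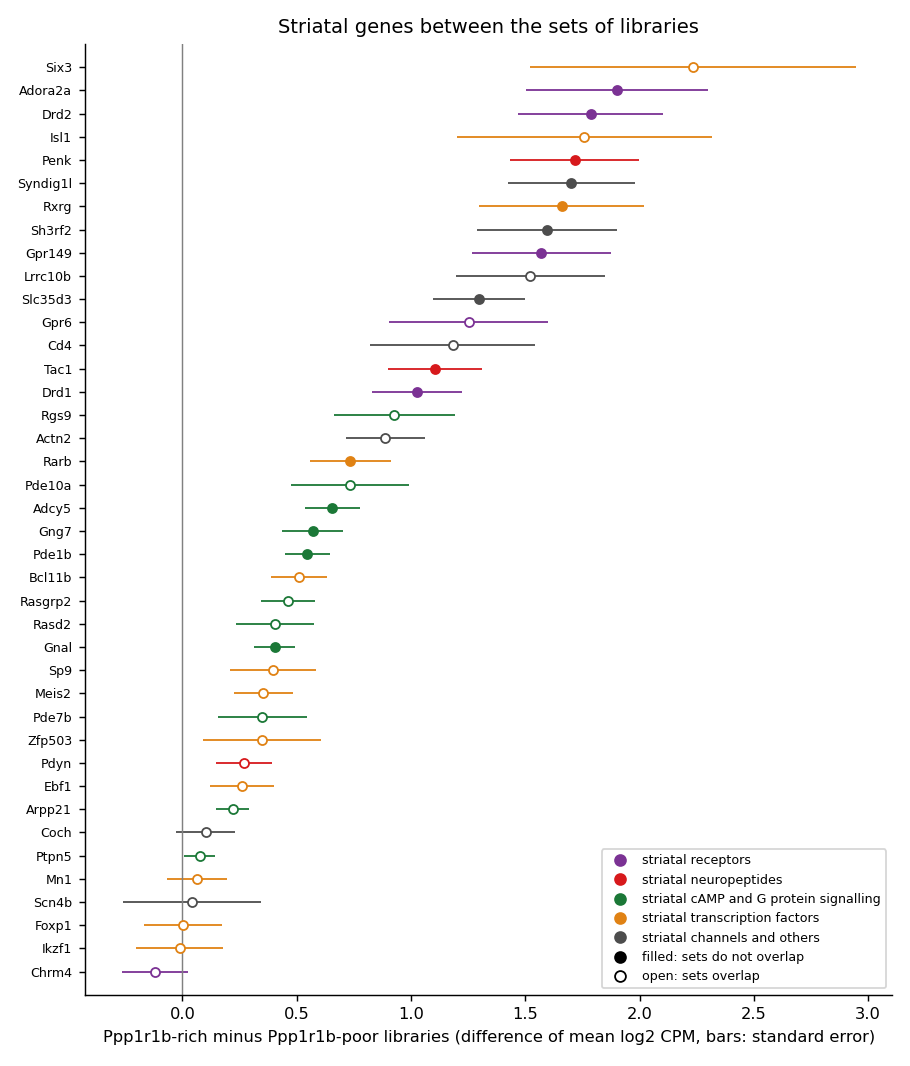
Difference of mean log2 CPM, Ppp1r1b-rich minus Ppp1r1b-poor, of 40 of the 41 striatal genes other than Ppp1r1b (6 libraries in each set, bars show the standard error), coloured by role. Filled points mark the 15 of these genes whose sets do not overlap. The points run from Six3 at 2.23 to Chrm4 at -0.12.

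The striatal genes thus changed by unequal amounts over the same libraries. The slope of log2 CPM on log2 Ppp1r1b was above 1 for 17 of the 41 genes. It was 2.08 for Adora2a, 1.92 for Drd2, 1.70 for Penk, 1.08 for Drd1 and 1.05 for Tac1, but 0.63 for Adcy5 and 0.45 for Gnal. For the 5 tested genes of the indirect pathway the median difference between the sets was 1.72 and 3 did not overlap. For the 7 of the direct pathway it was 1.03 and 3 did not overlap. Over all tested genes 0.566% were higher without overlap. The summed level of the indirect pathway genes was 93.2 to 224.0 CPM in the rich set and 30.4 to 63.5 CPM in the poor set, while the summed direct pathway genes overlapped, at 86.8 to 126.5 and 65.3 to 87.2 CPM. In the poor set much of the direct sum was Chrm4 (21.2 to 34.5 CPM) and Pdyn (20.8 to 28.2 CPM), which overlapped between the sets. Much of the indirect sum was Penk (22.2 to 44.7 CPM). Whether the pathways differ was not tested. 8 striatal genes overlapped and had r below 0.5: Chrm4, Coch, Foxp1, Ikzf1, Mn1, Ptpn5, Scn4b and Zfp503.

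Transcripts of the proteins on which DARPP-32 acts, or which act on it, mostly shifted in the same direction, by a small median amount. Of 16 genes encoding subunits of protein phosphatases 1, 2A and 2B, protein kinase A, Cdk5 with its activator, and the transcription factor Creb1, 15 were higher in the rich set, but with a median difference of 0.07, and none reached r = 0.8. The median r of the 16 genes was 0.42, against -0.02 over all 17306 tested genes, of which 8413 were higher. Ppp3cb, a catalytic subunit of calcineurin, was the single gene of this list that did not overlap (262.7 to 285.8 against 290.0 to 314.4 CPM, 0.14, SE 0.028). Over all tested genes 0.566% were higher without overlap. Ppp1ca, the phosphatase that DARPP-32 inhibits, differed by 0.08 (SE 0.058), and Cdk5, which phosphorylates DARPP-32, by -0.10 (SE 0.062).

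The promoters of the striatal genes were searched for the cAMP response element because these genes moved together and cAMP signalling is the pathway of DARPP-32. RefSeq windows on GRCm38.p6, from 250 bases before to 50 after a start, were matched for 32 of the 42 genes, not including Ppp1r1b or Penk. The palindrome TGACGTCA was found in 1 of the 32 genes, Gpr6 (3.12%), and in 3.35% of the 12200 tested genes with a window. Its core TGACG, or CGTCA on the other strand, which the palindrome contains, was found in 9 of the 32 (28.1%) and in 33.2% of all. A gene was counted if any of its windows matched, with 53 windows for the 32 genes and 15621 for the 12200. Counted per gene, without adjustment for the number of windows, the striatal genes held these letters about as often as other genes. 3 windows, cut to the 250 bases before the start, show a gene with the palindrome, a gene with the core and a gene with neither, with matching letters in capitals. They are Gpr6 on the minus strand of chr10:41072291-41072540, Slc35d3 on the minus strand of chr10:19851460-19851709 and Drd2 on the plus strand of chr9:49340153-49340402.
Gpr6: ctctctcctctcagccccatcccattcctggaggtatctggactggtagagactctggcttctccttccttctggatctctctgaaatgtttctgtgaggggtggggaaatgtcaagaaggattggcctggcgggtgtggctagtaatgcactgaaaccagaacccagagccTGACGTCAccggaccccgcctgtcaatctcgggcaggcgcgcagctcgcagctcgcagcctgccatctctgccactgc
Slc35d3: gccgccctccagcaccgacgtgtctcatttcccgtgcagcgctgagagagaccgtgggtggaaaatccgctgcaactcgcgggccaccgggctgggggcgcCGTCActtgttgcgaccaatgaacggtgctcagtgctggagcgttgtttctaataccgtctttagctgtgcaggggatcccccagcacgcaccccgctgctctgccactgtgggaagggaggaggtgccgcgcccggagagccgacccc
Drd2: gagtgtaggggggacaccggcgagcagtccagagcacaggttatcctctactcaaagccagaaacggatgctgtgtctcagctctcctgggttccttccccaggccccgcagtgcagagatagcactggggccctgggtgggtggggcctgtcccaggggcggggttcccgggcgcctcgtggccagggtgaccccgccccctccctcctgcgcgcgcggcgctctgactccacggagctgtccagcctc
Drd2, without a match, had the highest r with Ppp1r1b, and Gpr6 and Slc35d3, with one, had r of 0.91 and 0.88.

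Of 17306 genes, striatal ones included, 98 were higher in the rich set without overlap and 46 were lower. Among genes at 5 CPM or more on average and outside the striatal lists, the largest differences were those of Oprk1, the kappa opioid receptor on which dynorphin acts (2.65 to 5.44 against 5.47 to 11.9 CPM, 1.37, SE 0.22), and Ptprv (1.47 to 4.96 against 5.06 to 10.1 CPM, 1.28, SE 0.32). They were followed by Myo5b (0.80), Stum (0.79), Ccdc187 (0.78), Synpr, a synaptic vesicle protein (0.64), 1500009L16Rik (0.59) and Erich3 (0.57). Stum, Myo5b and Synpr separated the sets but did not follow Ppp1r1b within the rich set, where their r was -0.21, -0.01 and -0.07. The lower genes were led by Tshz2, a transcription factor of cortical neurons, with 85.3 to 134.9 CPM (median 115.9) in the poor and 29.3 to 79.9 CPM (median 54.9) in the rich set, a difference of -1.10 (SE 0.24). Lemd1 (-0.61), S1pr5 (-0.58), Etnk2 (-0.57) and Fa2h (-0.55) came next. Fa2h, a fatty acid hydroxylase, and S1pr5, a sphingosine phosphate receptor, are genes of oligodendrocytes.

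By correlation, the genes outside the striatal lists most like Ppp1r1b included Ric8b, a chaperone of the G protein that Gnal encodes (r = 0.93), and Gad2, which makes the transmitter GABA (0.92). Neto1, Cpsf3, Acly, Rragd, Rbms3, Dclk3, Sv2c, Ptprv and Oprk1 had r from 0.90 down to 0.86. Most of these varied little. Ric8b had 45.3 to 52.4 CPM in the poor and 50.4 to 65.8 CPM in the rich set (0.21, SE 0.067), and Gad2 had 114.3 to 143.7 against 139.1 to 183.6 CPM (0.28, SE 0.084). The most negative r was that of Ccl27a, a chemokine (-0.90), with 46.2 to 86.7 CPM in the poor and 25.0 to 66.5 CPM in the rich set, followed by Rps9, Prodh, Pknox1, Tsc22d4, Itpr3, Podxl and Kmt5c, with r from -0.88 to -0.84.

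Some lists of markers of other cells and regions differed in their medians between the sets, but none of their genes was without overlap. All 10 oligodendrocyte genes were lower in the rich set, with a median difference of -0.53, and their summed level was 3555 to 5833 CPM (median 4492) in the rich and 5527 to 7745 CPM (median 6844) in the poor set. Mobp, a myelin protein gene, had 429.6 to 781.0 CPM against 693.7 to 1194 CPM. None of the 10 was without overlap, and their median r with Ppp1r1b was -0.55. 5 of 6 genes of cortical excitatory neurons were lower, with a median difference of -0.25, but their summed level was 1273 to 1785 CPM in the rich and 1325 to 1785 CPM in the poor set. All 4 genes of the claustrum, a cell sheet between cortex and striatum, were higher (median 0.44, summed 125.3 to 225.7 against 106.0 to 148.9 CPM). So were the 3 tested cholinergic genes (median 1.03). Their summed level, with the untested Lhx8 included, was low, at 1.91 to 7.67 against 1.30 to 2.56 CPM. Lhx8, a defining factor of striatal cholinergic neurons, was at most 0.755 CPM.

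All 9 immediate early genes, which neurons transcribe upon activity, were lower in the rich set (median -0.38), with summed levels of 658.4 to 1491 CPM against 799.2 to 1761 CPM. All 10 choroid plexus genes were lower by their means of log2 CPM (median -0.55), although APP/PS1 female 2 held 2894 CPM of Ttr, the transthyretin of this tissue, and the summed level was 13.8 to 3236 CPM in the rich and 70.8 to 597.9 CPM in the poor set. The 8 GABAergic interneuron genes split evenly (median 0.00), and the medians of microglia (0.02), astrocytes (-0.04) and ependyma (0.17) were small. The lists for upper cortical layers, layer 5, layer 6, hippocampus, hypothalamus and thalamus, plaque-associated microglia, vessels, leptomeninges and neuroblasts had medians of -0.18, -0.12, 0.06, -0.25, 0.27, -0.15, -0.11, 0.09 and 0.15. The part of these cell types in the striatal pattern was not tested.

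The rich set was not uniform, as a comparison of its 3 highest libraries shows. These genes were chosen after their values were seen. Scn4b was 189.1 CPM in APP/PS1 male 3 but 65.2 in APP/PS1/Hras-/- male 1 and 70.2 in APP/PS1 female 2, and Pvalb, a marker of fast-spiking interneurons, was 63.0, 17.2 and 19.0 CPM in the same order. Pde10a was 247.8, 157.0 and 139.9 CPM, and Rasd2 143.7, 85.4 and 77.2 CPM. Rxrg went the other way, with 7.46, 14.2 and 12.8 CPM. Tbr1 was 93.6 and 76.2 CPM in these 2 Trh-high libraries and 123.9 to 157.1 CPM in the other 10. Without these 2 libraries the difference of Scn4b between the sets was 0.36 in place of 0.04, that of Penk 1.41 in place of 1.72, and that of Drd2 1.57 in place of 1.79.

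The comparison of the study, Hras knockout against Hras-bearing APP/PS1 mice, was examined for its dependence on the Ppp1r1b level. Hras itself was 82.9 ± 9.4 CPM (SD, n = 6) in APP/PS1 and 21.2 ± 1.6 CPM (SD, n = 6) in APP/PS1/Hras-/- mice, and the genotypes did not overlap (exact permutation p = 0.00217, which no split of 12 libraries into 6 and 6 can undercut). Ppp1r1b was 119.8 ± 51.9 CPM (SD, n = 6) in APP/PS1 and 95.4 ± 30.3 CPM (SD, n = 6) in APP/PS1/Hras-/- mice (difference of mean log2 CPM -0.26, exact permutation p = 0.433). The quasi-likelihood test of edgeR gave -0.32 (SE 0.31, adjusted p = 0.9999). The p-values measure the spread between these mice.

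Most striatal genes had lower values in the knockout over all 12 libraries, and most had higher values with the Ppp1r1b covariate or within a set. These amounts did not pass the test. Ppp1r1b itself was at -0.32, and the median r of these genes with it was 0.85. As a covariate it therefore moves their median up by construction, and the change of sign is not a separate result about them. Within the sets Ppp1r1b was not constant, at -0.19 (SE 0.25) in the rich and 0.23 (SE 0.25) in the poor set. In the fit with sex, 34 of the 41 genes were lower in APP/PS1/Hras-/- mice, with a median of -0.13 against 0.00 over all genes, and none passed the threshold of edgeR at an adjusted p of 0.05, which 0.0173% of all genes passed. DESeq2 called none of the 41 either. With log2 Ppp1r1b as a covariate, 11 of the 41 were lower, with a median of 0.07. Within the rich set, 4 APP/PS1 against 2 APP/PS1/Hras-/- mice, 13 were lower (median 0.09), and within the poor set, 2 against 4, 11 were lower (median 0.13). None of the 41 passed in these fits, in which 0.0173%, 0.0116% and 0.0116% of all genes passed. Without the filter on low counts, edgeR called Scn4b within the rich set and Adora2a and Six3 within the poor set. It called Scn4b and Six3 for the difference between the sets. Of all 31149 genes in that setting, 415, 201 and 486 were called, in the same order.

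The medians rest on few mice. Without APP/PS1/Hras-/- male 1, the median was -0.32 over the libraries left, -0.01 with the covariate and -0.18 within the rich set, where 31 genes were lower. Without APP/PS1 male 3 the median over the libraries left was -0.02, with 25 genes lower, and without APP/PS1 female 2 it was also -0.02, with 23 genes lower. Within the poor set, omission of APP/PS1 male 1 gave -0.03 and RIN as a covariate gave -0.03, with 22 genes lower in each. Other omissions moved the medians up. Within the poor set it was 0.37 without APP/PS1 female 3, and within the rich set it was 0.20 without APP/PS1 male 3 and 0.31 when APP/PS1/Hras-/- female 3 was left out. With the covariate it was 0.24 without APP/PS1 male 1 and 0.12 without APP/PS1/Hras-/- male 3. Over all 12 omissions the median ran from -0.01 to 0.24 with the covariate, from -0.18 to 0.31 within the rich set and from -0.03 to 0.37 within the poor set. Without APP/PS1 female 1 the median within the rich set was -0.0026, with 21 genes lower. Omission of both Trh-high libraries gave -0.14 within the rich set and -0.02 with the covariate.

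**Figure D5:**
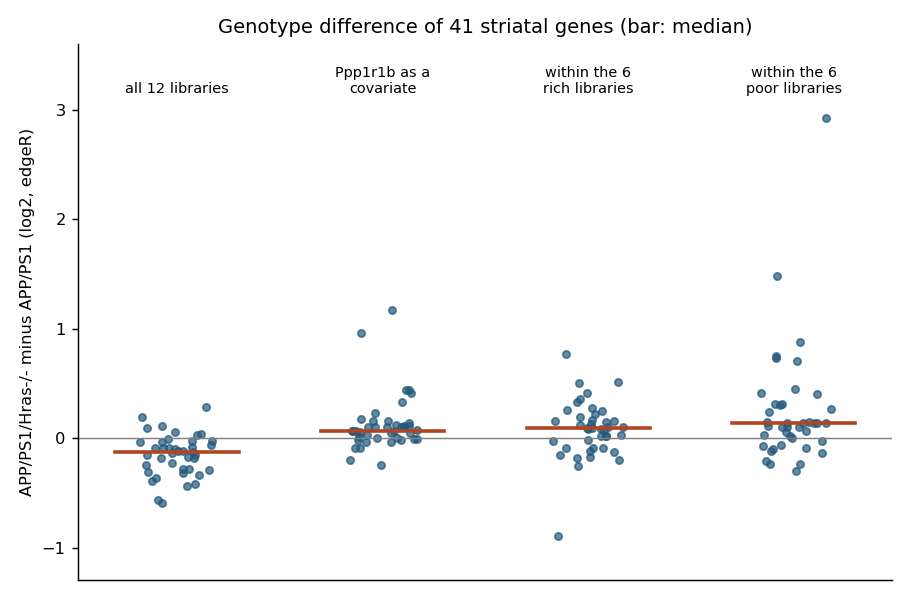
Genotype difference, APP/PS1/Hras-/- minus APP/PS1, on the log2 scale (vertical axis) of the 41 striatal genes other than Ppp1r1b in 4 fits of edgeR, 1 point per gene, with the bar at the median. The medians are -0.13 over the 12 libraries, 0.07 with Ppp1r1b as a covariate, 0.09 within the rich and 0.13 within the poor set.

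DESeq2 called 7 genes by genotype without the Ppp1r1b covariate and 12 with it. The genes that passed the genotype test of edgeR were the same with and without the covariate. Hras fell by 1.95 (SE 0.077), and Gm5905 and Lrrc56, which lie beside Hras on chromosome 7, rose by 6.69 (SE 0.17) and 0.91 (SE 0.099; edgeR adjusted p = 0.00128). With the covariate, Hras was lower by the same margin (-1.96), and Gm5905 and Lrrc56 were higher by 6.66 and 0.93 (edgeR adjusted p = 0.00291 for Lrrc56). Gm5905 had 0.514 ± 0.226 CPM in APP/PS1 and 54.7 ± 6.1 CPM in APP/PS1/Hras-/- mice (SD, n = 6 each), so its fitted difference depends on low counts. Hras and Gm5905 passed within each set, while Lrrc56 was at 1.01 (SE 0.15, edgeR adjusted p = 0.0688) within the rich and 0.86 (SE 0.16, adjusted p = 0.601) within the poor set. A test of the difference between the 2 within-set effects called no gene with edgeR (0% of all), 1505 genes had an unadjusted p under 0.05, and DESeq2 called 1 gene, Col6a1.

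By sex, 10 of the 41 striatal genes were higher in females, with a median of -0.14 female minus male, and none passed the test of edgeR, which 0.0693% of all genes passed. The median rested on single mice as well. It was 0.09 without APP/PS1/Hras-/- male 1, with 13 genes lower, -0.0020 without APP/PS1 male 3, with 21 lower, and -0.02 without both Trh-high libraries, with 22 lower. It was -0.24 without APP/PS1/Hras-/- male 2, -0.06 without APP/PS1 female 3 and -0.07 when APP/PS1/Hras-/- female 2 was left out.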

How the data were processed

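The authors deposited a table of raw counts per gene for poly(A) RNA libraries of frontal cortex, made with a TruSeq Stranded kit per the labels' protocols. Per the submitters' processing notes, the tools were HISAT2 2.1.0, featureCounts, Trimmomatic 0.33 and FastQC 0.11.7, and the builds mm10 and mm9 are named with no role. No source used here gives the annotation release, the strand setting or how multiply aligned reads were counted. 18 of the 42 striatal genes tested overlap another annotated gene, and 6 of them (Adcy5, Arpp21, Gnal, Rarb, Six3 and Sp9) overlap 1 at a mean of at least 1 CPM. Their counts carry that uncertainty.

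Gene identifiers were given symbols from GENCODE M21 (GRCm38). Of 54532 genes, 37 had no match and held 0.0099% of the counts. CPM is the count divided by the library total, and the prior count for log2 CPM was 2. The filterByExpr function of edgeR, given the 4 genotype-by-sex groups, left 17307 genes. The sets were split at 100 CPM of Ppp1r1b, a measured value, so gene levels compared between the sets or correlated with Ppp1r1b carry no p. Genotype and sex were tested with the robust quasi-likelihood F test of edgeR 4.0.16 in R 4.3.3, with TMM scaling, Benjamini-Hochberg adjustment over all genes tested and a threshold of 0.05. The model had sex and genotype, then log2 Ppp1r1b as a covariate, then means of set by genotype with sex. The edgeR fits were checked on counts simulated with a single dispersion for all genes and no difference between the sets. The check required recovery of genotype changes over 12 libraries and few false calls for the difference between the sets. It set no requirement on the tests within a set. Exact permutation tests were two-sided over the 924 ways to draw 6 of 12 libraries, and permutation tests of correlations used 100000 resamples.

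Named genes were Hras, Ppp1r1b, all tested striatal genes, and of the genes outside the striatal lists with a mean of at least 5 CPM the 12 with the highest and 8 with the lowest r, and the 8 with the largest and 5 with the smallest difference among those without overlap. Members of the other lists and the genes called by genotype completed the rule. A few of these genes are not reported by name here but remain in the counts and medians. The members, the 27 gene lists and these rules were chosen with earlier results of these data known.

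Alternatives covered TMM and RLE scaling, DESeq2 1.42.0, other filters and prior counts, splits at 80 and 120 CPM, Spearman's rho, removal of genotype and sex means, RIN as a covariate, omission of the 2 Trh-high libraries and omission of each library in turn.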

Additional observations from a re-analysis of the deposited data

Results flagged for a closer look

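The highest and lowest values of each group of 6 libraries were compared with the nearest of the others, for the striatal genes, Trh and Ttr within each set and for Ppp1r1b, RIN and the total count within each genotype. In 10 of 94 such groups the gap was above Dixon's 95% critical value, and chance flags about 1 in 20 groups.

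4 of the values belonged to the rich set's upper end. Pde10a reached 247.8 CPM in APP/PS1 male 3, with the next library at 157.0 CPM. Ebf1, a transcription factor of the direct pathway, was 4.99 CPM in APP/PS1 female 2, with the next at 3.80 CPM. Isl1 was 2.15 CPM in APP/PS1/Hras-/- male 1, with the next at 0.980 CPM. Ttr was 2894 CPM in APP/PS1 female 2, with the next at 32.3 CPM. At the lower end of the rich set, Rasgrp2, an exchange factor for Rap and Ras, was 29.8 CPM in APP/PS1 female 1, with the next at 41.9 CPM.

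In the poor set, 3 values stood above the rest. Six3 was 3.39 CPM in APP/PS1/Hras-/- female 1, with the next at 0.938 CPM, a level within the range of the rich set. Actn2 and Sh3rf2 were 10.5 and 2.56 CPM in APP/PS1/Hras-/- male 3, the poor library nearest to the threshold, with the next at 8.51 and 1.54 CPM. At the lower end, Arpp21, a phosphoprotein of striatal neurons, was 251.6 CPM in APP/PS1/Hras-/- male 2, with the next at 293.7 CPM, and Foxp1 was 63.6 CPM in APP/PS1 male 1, with the next at 84.8 CPM.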

How the results depend on the processing

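No paired analysis was possible because the labels carry no shared replicate numbers. The median striatal difference of 0.66 kept its sign and moved by less than the spread between libraries in all alternatives tried (0.57 to 0.73 with 1 library left out). The differences of 9 single striatal genes kept their sign under TMM scaling, RLE scaling and omission of both Trh-high libraries. With that omission Scn4b moved from 0.04 to 0.36 and Penk from 1.72 to 1.41. Counts moved more. With the split at 120 CPM, which gives sets of 4 and 8, 29 genes were higher and 16 lower without overlap, 7 of them striatal and higher, and with the split at 80 CPM 123 were lower. With genotype and sex means removed, 104 genes were higher and 94 lower. The striatal genes among the higher ones then fell from 16 to 9, although the count over all genes did not fall (98 in the main setting). With these means removed, 268 genes had r of at least 0.8 and 193 of at most -0.8, against 95 and 31 in the main setting. By Spearman's rho the counts were 147 and 83. Without both Trh-high libraries 104 were lower and 87 had r of at most -0.8.

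A smaller set has fewer chances to overlap, and with 1 library left out 106 to 270 genes were higher (214 without APP/PS1 male 1, 270 without male 2, 148 without male 3, 215 without APP/PS1/Hras-/- female 1), 51 to 166 lower and 16 to 19 striatal genes higher. Of the lower genes, there were 128, 166 and 82 without APP/PS1 males 1, 2 and 3, 74 without APP/PS1 female 2, 77 without APP/PS1/Hras-/- male 3 and 157 without APP/PS1/Hras-/- female 1. r of at least 0.8 was reached by 77 to 188 genes (188 without APP/PS1 male 3). r of at most -0.8 was reached by 35 to 104 (53 and 104 without APP/PS1 males 2 and 3, 64 without APP/PS1 female 2, 51 without APP/PS1/Hras-/- male 3, 96 and 59 without APP/PS1/Hras-/- females 1 and 3).

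For genotype, DESeq2 called 7 genes over 12 libraries, 12 with the covariate, 4 within the rich set, 5 within the poor set and 1 for their difference. Without a filter on low counts edgeR called 5, 6, 415, 201 and 486, and the cause was not tested. Omission of both Trh-high libraries gave 2 genes for the difference. With 1 library left out the counts were 3 to 4, 3 to 5 (5 without APP/PS1 female 2), 2 to 4 (4 without APP/PS1 female 2), 2 to 4 (4 without APP/PS1/Hras-/- male 2) and 0 to 1 (1 without APP/PS1 female 2, APP/PS1 female 3 or APP/PS1/Hras-/- male 2). The genotype difference of Ppp1r1b then ran from -0.49 to -0.12, and the striatal median from -0.32 to -0.02. The RIN difference of -0.017 changed sign with the split at 80 CPM (0.112) and ran from -0.143 to 0.0367 with 1 library left out. The difference in total counts, 802800, was -202600 and -345300 with the splits at 80 and 120 CPM and ran from 222400 to 1460000. Genes near 1 CPM, such as Isl1 and Six3, rest on few counts per library.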
